A study of Mus musculus with 12 samples.

Results

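Ductal and tumour epithelial genes are described here across 9 mouse pancreatic tumours. The set holds 39 genes given by name: epithelial keratins, junction and desmosome proteins, mucins, duct and foregut markers, and factors that set epithelial splicing and transcription. Every array probe annotated with one of these names was read. Of the 39 genes, 35 had at least 1 such probe and 29 were bright enough to be tested, among 9788 genes tested in all.

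Pancreatic ducts are lined by a simple epithelium whose cells contain the paired keratins Krt8 and Krt18, are held together by cadherins, claudins and desmosomes, and secrete bicarbonate through the chloride channel Cftr. Ductal adenocarcinoma cells keep much of this programme and often add gastric and intestinal genes, so these transcripts are commonly read as the epithelial share of a tumour and as its differentiation state. Repressors such as ZEB and SNAI factors are known to bind E-boxes in the promoters of junction genes and to lower them when epithelial cells become mesenchymal.

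The tumours grew in adult female C57BL/6J mice after surgical implantation of a syngeneic pancreatic ductal adenocarcinoma line with Matrigel into the pancreas. The labels do not name the line or its mutations, or say whether more than 1 line was used. Mice with established tumours ate chow with vehicle (Vehicle, 4 tumours) or with a compound that blocks CSF1R, the growth factor receptor that macrophages depend on (CSF1Ri, 5 tumours), for 8 days, and the inhibitor is not named in the labels. Heparinised saline was perfused before the tumours were taken and digested with collagenase, and total RNA was hybridised to 12 Illumina BeadArrays, with Vehicle 1, Vehicle 3 and CSF1Ri 1 hybridised again as 3 repeat arrays. The question was how blocking this receptor changes expression in the tumour as a whole. Since whole tissue was measured, fewer epithelial cells and less RNA per epithelial cell cannot be told apart.

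Between 16219 and 17847 probes were detected per array (detection p-value under 0.05, the chance of such a signal in the negative controls), and the number of arrays limits the precision. Values below are background-corrected, quantile-normalised log2 intensities, averaged over the arrays of a tumour. A difference is CSF1Ri minus Vehicle, fitted with limma over the 9 tumours, with p-values adjusted by Benjamini-Hochberg over all 9788 genes. The labels do not say that each tumour is a separate implantation, so p-values measure the spread between these tumours. The arrays fell into 6 dimmer and 6 brighter ones by mean intensity, each holding 3 tumours of each group. Vehicle 1, Vehicle 3 and CSF1Ri 1 were in both sets through their repeat arrays, so the sets are not independent. Vehicle 2, CSF1Ri 2 and CSF1Ri 3 were only in the dimmer set, and Vehicle 4, CSF1Ri 4 and CSF1Ri 5 only in the brighter. Brightness and the choice of tumours therefore cannot be told apart between the sets. The CSF1Ri 3 array stood apart in the authors' processed intensities, with a median of 5.35 against 3.61 to 4.43 on the other 11 arrays, and values without this tumour are given where it was far above the rest. Macrophage markers check the treatment: of 14 tested, 3 passed the test as lower in CSF1Ri tumours. The summed linear signal of the 14 was 9228 to 18175 in Vehicle and 5087 to 12667 in CSF1Ri, which overlap. Their mean log2 level was 8.12 to 8.83 in Vehicle and 7.08 to 7.98 in CSF1Ri, which do not overlap.

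No ductal or epithelial gene passed the test between the groups. Among the 29 tested, 0 were called higher, where 0% of all genes were, and 0 were called lower, where 0.215% were. The smallest adjusted p of any member was 0.538 (limma). The count at an unadjusted p under 0.05 was 2 higher (Onecut2 and Cldn4) and 0 lower, beside 3.73% of all genes higher and 3.8% lower. In 0 members did the Vehicle and CSF1Ri tumours separate without overlap, beside 1.46% of all genes separating with CSF1Ri higher and 1.42% with CSF1Ri lower. Taken probe by probe, 0 of 40 kept member probes were called, beside 0.145% of all kept probes in either direction, and 2 had an unadjusted p under 0.05 with CSF1Ri higher, beside 4.18%.

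**Figure D1:**
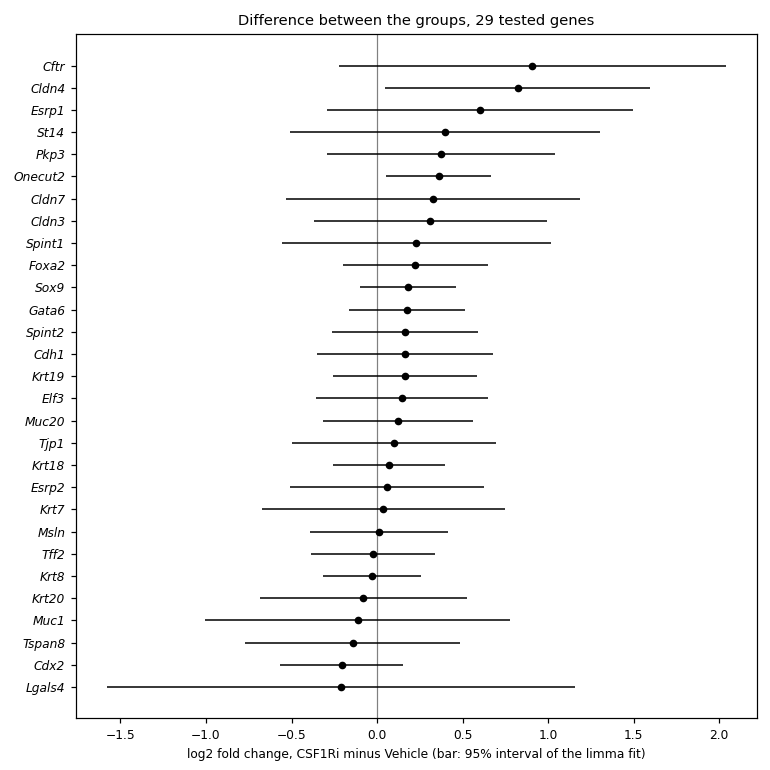
Log2 fold change, CSF1Ri minus Vehicle, of the 29 tested genes (horizontal axis, points) with the 95% interval of the limma fit (bars); the vertical line is no difference. The estimates run from -0.21 for Lgals4 to 0.91 for Cftr, and only the bars of Onecut2 and Cldn4 lie wholly above 0.

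The estimates leaned upward without any of them passing. Of the 29 members 22 had a positive log2 fold change (75.9%) and 7 a negative one, with a median of 0.16, beside 53.0% positive and a median of 0.01 over all genes. Leaving out Vehicle 2 left 15 of 29 positive with a median of 0.03, and leaving out Vehicle 1 left 28 of 29 with a median of 0.27. Leaving out any 1 of the other 7 tumours left 20 to 23 of 29, with medians of 0.065 to 0.20. Within the 6 brighter arrays 12 of 29 were positive (median -0.07), and within the 6 dimmer arrays 18 of 29 (median 0.09). For 8 members the 95% interval lay inside a 1.5-fold change in either direction: Krt8, Krt18, Muc20, Sox9, Tff2, Cdx2, Msln and Gata6. Of these, Muc20 and Cdx2 were dim and not detected on every array. The offset added before taking log2 shrinks the fold changes of dim genes, so their intervals bound the change less well. The intervals of 20 members lay inside a 2-fold change.

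**Figure D2:**
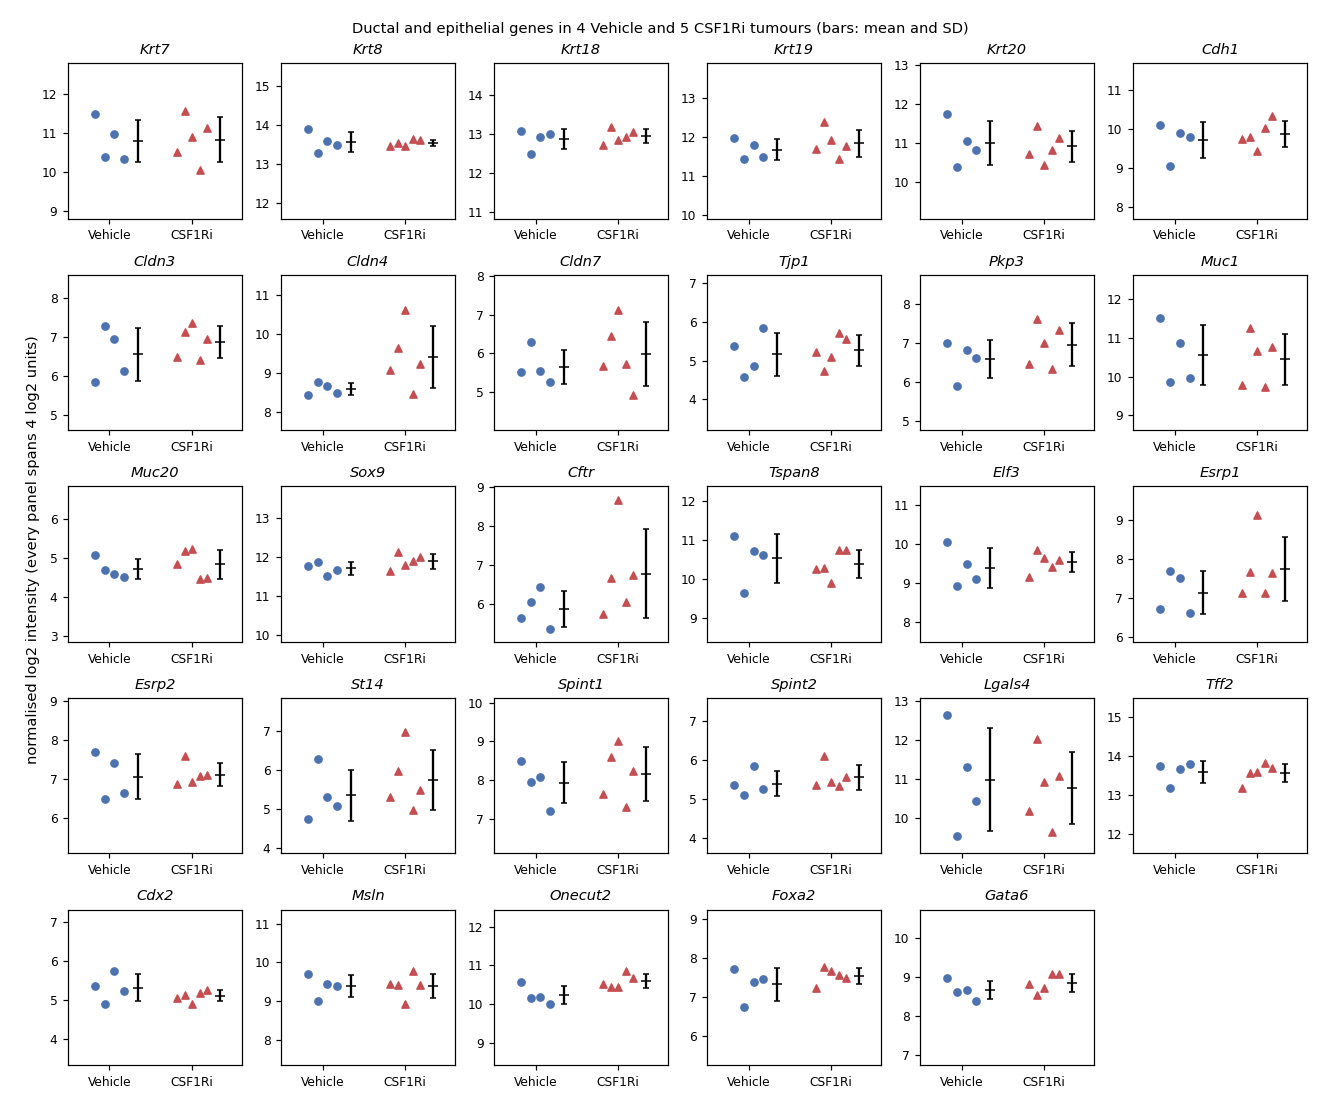
Normalised log2 intensity of each of the 29 tested genes in the 4 Vehicle tumours (circles) and 5 CSF1Ri tumours (triangles), with mean and SD (bars); every panel spans 4 log2 units. The groups overlap in every panel, and single tumours such as CSF1Ri 3 for Cldn4 (10.62) and Cftr (8.68) stand above the rest.

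Among the keratins, the intermediate filament proteins of epithelium, the estimates ran from -0.08 to 0.16. Krt8, the type II keratin of simple epithelia, measured 13.89, 13.29, 13.59 and 13.48 in Vehicle 1 to 4 and 13.45, 13.53, 13.45, 13.63 and 13.62 in CSF1Ri 1 to 5. The 5 CSF1Ri tumours lay within the Vehicle range, and the difference was -0.03 (SE 0.13, 95% interval -0.31 to 0.25). Its type I partner Krt18 measured 13.09, 12.49, 12.94 and 13.003 in Vehicle and 12.72, 13.18, 12.84, 12.94 and 13.06 in CSF1Ri. Vehicle 2 was the lowest tumour for both partners, and the Krt18 difference was 0.07 (SE 0.15, interval -0.26 to 0.40).

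Krt19, the keratin most used to mark pancreatic ducts, measured 11.99, 11.45, 11.81 and 11.48 in Vehicle and 11.70, 12.38, 11.92, 11.44 and 11.79 in CSF1Ri. CSF1Ri 2 was highest and CSF1Ri 4 lowest, so the CSF1Ri group spanned the Vehicle group. The difference was 0.16 (SE 0.19, adjusted p = 0.952). Krt7, which pairs with Krt19 in ducts, measured 11.48, 10.39, 10.96 and 10.32 in Vehicle and 10.51, 11.56, 10.90, 10.04 and 11.12 in CSF1Ri. It repeated the order of Krt19 at both ends, and its difference was 0.04 (SE 0.32, interval -0.67 to 0.75). Krt20, an intestinal keratin, ranged from 10.38 to 11.74 in Vehicle and 10.45 to 11.45 in CSF1Ri.

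Of the junction genes, 5 of 5 tested had estimates above 0 (median 0.31). The protease and foregut roles, with 3 of 3 each, and the splicing factors, with 2 of 2, were also wholly positive. So were the desmosome, epithelial transcription factor and mesothelin roles, each with 1 gene tested. The keratins had 3 of 5 and the ductal and secreted genes 2 of 3. The mucins had 1 of 2 and the gastric and intestinal genes 0 of 3. Cldn4, a tight junction claudin that is abundant in pancreatic carcinoma, measured 8.44, 8.77, 8.66 and 8.49 in Vehicle and 9.09, 9.65, 10.62, 8.45 and 9.24 in CSF1Ri. All 4 Vehicle tumours lay close together, 4 of 5 CSF1Ri tumours lay above them, and CSF1Ri 4 lay among them. The means were 8.59 ± 0.16 (SD, n = 4) and 9.41 ± 0.80 (SD, n = 5), a 1.77-fold difference (log2 0.82, SE 0.35) that did not pass (adjusted p = 0.618, limma, unadjusted p = 0.0392). Without CSF1Ri 3 the difference was 0.52 on the log2 scale. The 6 dimmer arrays alone gave 1.17 and the 6 brighter arrays alone 0.39.

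Cldn3, a second barrier-forming claudin and the chromosomal neighbour of Cldn4, measured 5.84, 7.29, 6.94 and 6.13 in Vehicle and 6.49, 7.12, 7.35, 6.40 and 6.94 in CSF1Ri. Its difference was 0.31 (SE 0.31, adjusted p = 0.928), and Vehicle 2 lay almost level with CSF1Ri 3 at the top. Cldn7, the claudin that also lines lateral membranes, ranged from 5.26 to 6.29 in Vehicle and from 4.94 to 7.12 in CSF1Ri, with both extremes in the CSF1Ri group, and its difference of 0.33 was 0.045 without CSF1Ri 3. Cdh1, E-cadherin, measured 10.10, 9.05, 9.91 and 9.79 in Vehicle and 9.75, 9.80, 9.44, 10.04 and 10.35 in CSF1Ri. Vehicle 2 was lowest, and the difference was 0.16 (SE 0.23, interval -0.35 to 0.68). Tjp1, the tight junction scaffold ZO-1, was detected on 9 of 12 arrays and ranged from 4.58 to 5.83 in Vehicle and 4.72 to 5.72 in CSF1Ri.

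Averaged over these 5 junction genes, the log2 level was 7.05 to 7.20 in the Vehicle tumours and 7.25 to 7.92 in the CSF1Ri tumours, and the groups did not overlap. The highest Vehicle value, 7.196, and the lowest CSF1Ri value, 7.248, lay close together. Hybridising a tumour again moved single genes of the 5 by up to 0.11 (Cldn3) to 0.94 (Tjp1). How often averages of other genes separate was not examined. On the summed linear scale they did overlap, at 1225 to 1591 and 1582 to 2611. In the other 10 of 11 roles, and over all 29 members (8.50 to 9.01 in Vehicle, 8.62 to 9.16 in CSF1Ri), the mean log2 levels of the groups overlapped. Neither junction average was tested, since the genes were not chosen independently of earlier results.

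The promoters of the neighbouring claudins and of the paired keratins are shown because the partners lie next to each other in the RefSeq table and their tumour profiles can be set side by side. Capitals mark the E-box CACCTG or its reverse complement CAGGTG. Each window runs from 250 bases before to 50 after the gene's start, 5′ to 3′ on the gene's strand, from RefSeq on GRCm38.p6: Cldn4 at chr5:134946885-134947184 on the minus strand, Cldn3 at chr5:134985964-134986263 on the plus strand, Krt8 at chr15:102004293-102004592 on the minus strand and Krt18 at chr15:102027966-102028265 on the plus strand.
Cldn4: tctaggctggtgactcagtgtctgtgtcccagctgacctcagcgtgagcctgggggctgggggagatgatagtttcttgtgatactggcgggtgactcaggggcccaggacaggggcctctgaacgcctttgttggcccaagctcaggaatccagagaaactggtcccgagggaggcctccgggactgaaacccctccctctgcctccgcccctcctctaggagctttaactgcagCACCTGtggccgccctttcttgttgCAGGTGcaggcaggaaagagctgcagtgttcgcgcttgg
Cldn3: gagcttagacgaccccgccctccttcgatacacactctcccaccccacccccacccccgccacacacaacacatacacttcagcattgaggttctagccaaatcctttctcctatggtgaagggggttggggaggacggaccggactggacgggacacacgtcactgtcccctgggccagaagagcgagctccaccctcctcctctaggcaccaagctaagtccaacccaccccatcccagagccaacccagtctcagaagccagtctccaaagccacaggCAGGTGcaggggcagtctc
Krt8: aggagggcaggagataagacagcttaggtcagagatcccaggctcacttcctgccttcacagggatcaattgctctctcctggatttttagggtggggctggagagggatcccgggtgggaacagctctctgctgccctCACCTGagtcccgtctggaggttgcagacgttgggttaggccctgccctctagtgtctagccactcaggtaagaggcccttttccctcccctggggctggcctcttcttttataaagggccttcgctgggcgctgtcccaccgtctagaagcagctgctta
Krt18: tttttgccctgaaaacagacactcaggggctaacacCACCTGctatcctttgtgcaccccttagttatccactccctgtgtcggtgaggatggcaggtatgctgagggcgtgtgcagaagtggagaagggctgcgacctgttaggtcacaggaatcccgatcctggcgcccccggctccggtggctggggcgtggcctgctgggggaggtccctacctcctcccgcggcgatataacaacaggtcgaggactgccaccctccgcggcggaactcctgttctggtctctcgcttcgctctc

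The Cldn4 window holds 2 E-boxes, whose first bases lie at -14 and 12 from the start, and the other 3 windows hold 1 each, at 32 in Cldn3, -111 in Krt8 and -214 in Krt18. Windows were found for 25 of the 39 genes (30 windows, some genes having several starts), and 16 of these 25 genes hold at least 1 E-box. By window the share was 56.7% (17 of 30), beside 20.2% of all 32851 windows in the table. The TATA box TATAAA, on either strand, was in 7 of 30 member windows (23.3%) and in 13.6% of all. The grainyhead-like motif AACCGGTT, its own reverse complement, was in 0 of 30 and in 0.146% of all. No motif contains another. A match describes the letters only, and no binding was measured. The genes of the repressors themselves are in the mesenchymal list below.

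Of the desmosome genes, the plaque protein Pkp3 was tested and measured 7.01, 5.89, 6.82 and 6.61 in Vehicle and 6.47, 7.62, 7.01, 6.32 and 7.34 in CSF1Ri. Vehicle 2 was again lowest and CSF1Ri 2 highest, and the difference was 0.37 (SE 0.30, adjusted p = 0.903). The dimmer arrays alone gave 0.36 and the brighter arrays alone 0.0013. Muc1, the transmembrane mucin of ductal apical membranes, measured 11.51, 9.87, 10.86 and 9.96 in Vehicle and 9.78, 11.26, 10.66, 9.73 and 10.76 in CSF1Ri. Vehicle 1 and CSF1Ri 2 were highest, and all 4 kept Muc1 probes placed Vehicle 1 at the top, with differences of -0.18 to -0.11. Muc20, another membrane mucin, was detected on 6 of 12 arrays and ranged from 4.51 to 5.08 and from 4.45 to 5.23.

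The duct markers did not move together. Sox9, the transcription factor that maintains duct identity, measured 11.76, 11.88, 11.51 and 11.66 in Vehicle and 11.62, 12.12, 11.80, 11.88 and 11.99 in CSF1Ri. It had one of the narrowest ranges of the set, 1.52-fold between the highest and lowest tumour, and a difference of 0.18 (SE 0.13, adjusted p = 0.872). Cftr measured 5.64, 6.05, 6.44 and 5.36 in Vehicle and 5.75, 6.68, 8.68, 6.05 and 6.74 in CSF1Ri. CSF1Ri 3 was 3.86-fold above the next tumour, and the other 8 tumours overlapped. The difference was 0.91 (SE 0.51, adjusted p = 0.776) and was 0.43 without CSF1Ri 3. Tspan8, a tetraspanin of gastrointestinal carcinomas, ranged from 9.65 to 11.11 in Vehicle and 9.89 to 10.75 in CSF1Ri.

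Esrp1, which together with Esrp2 holds splicing in its epithelial form, measured 6.73, 7.70, 7.50 and 6.61 in Vehicle and 7.12, 7.67, 9.13, 7.12 and 7.63 in CSF1Ri. CSF1Ri 3 stood 2.71-fold above the next tumour, Vehicle 2. The difference was 0.60 (SE 0.40, adjusted p = 0.861) and was 0.25 without CSF1Ri 3. Esrp2 ranged from 6.47 to 7.69 in Vehicle and 6.86 to 7.60 in CSF1Ri, with Vehicle 1 highest on both kept probes. The paralogs thus had different tumours at the top. Elf3, an epithelial ETS factor, ranged from 8.91 to 10.05 and from 9.16 to 9.85, and its 3 kept probes gave differences of 0.14 to 0.49 and placed 3 different tumours at the top.

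The membrane protease system of epithelia was measured through St14 (matriptase) and its Kunitz inhibitors Spint1 and Spint2. St14 measured 4.74, 6.28, 5.29 and 5.07 in Vehicle and 5.31, 5.98, 6.96, 4.98 and 5.48 in CSF1Ri. CSF1Ri 3 was highest and Vehicle 1 lowest, and the difference was 0.40 (SE 0.41, adjusted p = 0.938) and 0.09 without CSF1Ri 3. A second St14 probe gave 0.83 (SE 0.38, adjusted p over probes = 0.676) and also placed CSF1Ri 3 at the top. Spint1 ranged from 7.22 to 8.48 and from 7.31 to 9.01, with CSF1Ri 3 highest, and Spint2 from 5.10 to 5.84 and from 5.33 to 6.10.

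The gastric and intestinal genes were the 1 role in which 0 of 3 tested members had a positive estimate. Lgals4, galectin-4 of gut epithelium, measured 12.64, 9.51, 11.30 and 10.43 in Vehicle and 10.17, 12.03, 10.91, 9.62 and 11.06 in CSF1Ri. It spanned 8.73-fold between Vehicle 1 and Vehicle 2, within the Vehicle group, and its 3 kept probes all placed Vehicle 1 highest. The difference was -0.21 (SE 0.62, interval -1.58 to 1.16). Cdx2, the intestinal homeobox factor, measured 5.36, 4.89, 5.74 and 5.24 in Vehicle and 5.04, 5.13, 4.90, 5.17 and 5.26 in CSF1Ri. Vehicle 3 was highest, the groups overlapped, and the difference was -0.21 (SE 0.16, adjusted p = 0.896). Tff2, the trefoil peptide of gastric gland mucus, ranged from 13.19 to 13.79 and from 13.18 to 13.82.

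The foregut transcription factors were all 3 positive. Onecut2, a factor of hepatic and pancreatic development, had the smallest p of the set and measured 10.56, 10.16, 10.18 and 10.01 in Vehicle and 10.51, 10.45, 10.46, 10.86 and 10.68 in CSF1Ri. All 5 CSF1Ri tumours lay above Vehicle 2, 3 and 4, while Vehicle 1 lay among them. The difference was 1.28-fold (log2 0.36, SE 0.14) and did not pass (adjusted p = 0.538, unadjusted p = 0.0260). The dimmer arrays alone gave 0.19, the brighter arrays alone 0.41, and a second kept probe gave 0.23.

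Foxa2, a pioneer factor of foregut endoderm, measured 7.72, 6.74, 7.38 and 7.47 in Vehicle and 7.24, 7.76, 7.67, 7.58 and 7.48 in CSF1Ri. Only Vehicle 2 lay clearly apart, and the difference was 0.22 (SE 0.19, adjusted p = 0.911). Gata6, which marks the classical subtype of human pancreatic carcinoma, measured 8.98, 8.62, 8.68 and 8.40 in Vehicle and 8.83, 8.53, 8.71, 9.08 and 9.07 in CSF1Ri. The groups overlapped over most of their range, and the difference was 0.17 (SE 0.15, adjusted p = 0.912). Msln, mesothelin, made by many pancreatic carcinomas and by mesothelium, measured 9.71, 9.02, 9.45 and 9.38 in Vehicle and 9.45, 9.42, 8.93, 9.79 and 9.41 in CSF1Ri. Its extremes were both in CSF1Ri tumours, and the difference was 0.01 (SE 0.18, interval -0.39 to 0.41). Of the mesothelial markers besides Msln, Upk3b and Upk1b were each detected on 5 Vehicle and 6 CSF1Ri arrays and Calb2 on 4 and 5, Gpm6a on 0 and 1, and Lrrn4 and Rspo1 on 0. The summed linear signal of Upk3b, Upk1b and Calb2 was 85.8 to 174 in Vehicle and 128 to 189 in CSF1Ri, and its part in the Msln values was not tested.

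Another 6 members had probes too dim to test. The 1 Epcam probe, for the adhesion molecule most used to sort epithelial cells, was detected on 0 of 12 arrays, as were the 1 probe of Ehf, an ETS factor, and both probes of Grhl2, a grainyhead-like activator of junction genes. Ocln (occludin) was detected on 2 Vehicle and 1 CSF1Ri arrays, Jup (plakoglobin) on 1 and 1, and Muc4, a membrane mucin, on 0 and 2 with 1 probe and on 1 and 0 with the other. Dark probes also occurred in genes that were otherwise bright. Of 10 member probes detected on 0 arrays, 6 belonged to members with another, kept probe, among them second probes of Krt8, Cftr and Foxa2, so a dark probe alone gives no level for its gene. Dsp (desmoplakin), Spp1 (osteopontin), Tff1 (a gastric trefoil peptide) and Areg (amphiregulin, an EGF receptor ligand) had no probe under these names and were not analysed here.

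The members varied more between tumours of a group than most genes did. The pooled within-group SD had a median of 0.44 log2 units over the 29 members, beside 0.23 over all genes, and 25 of the 29 lay above that all-gene value. Hybridising a tumour again moved the members by a median of 0.16 log2 units, and all genes by 0.16 as well. In all 29 members the range over the 9 tumours was larger than the largest of the 3 repeat differences, although Tjp1 came near, at 1.25 against 0.94. A range of 9 values tends to exceed 3 pair differences even where tumours do not differ. The count of 29 therefore cannot separate tumour differences from hybridisation noise.

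**Figure D3:**
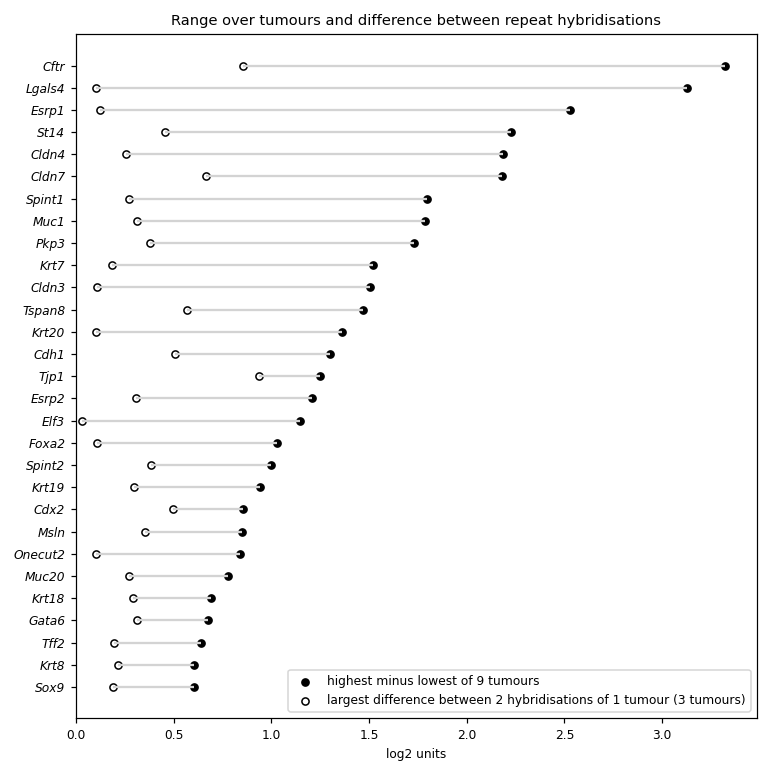
For each tested gene, the highest minus the lowest of 9 tumours (filled points) and the largest difference between both hybridisations of 1 tumour, over 3 tumours (open points), in log2 units. Cftr (3.32) and Lgals4 (3.13) have the widest ranges. In all 29 genes the filled point lies to the right, which a range of 9 values favours over 3 pair differences.

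The members fell into groups by which tumour was highest, a description made after their values were seen. In 9 members the 2 highest tumours were Vehicle 1 and CSF1Ri 2: the keratins Krt7, Krt18, Krt19 and Krt20, with Muc1, Elf3, Esrp2, Lgals4 and Foxa2. This pair was at the top of 31.0% of the members, 12.8% of the 94 related genes described below and 4.70% of all genes. It joins 1 tumour of each group. In 8 members CSF1Ri 3 was highest: Cldn3, Cldn4, Cldn7, Muc20, Cftr, Esrp1, St14 and Spint1 (27.6%, beside 15.5% of all genes). In 4 members CSF1Ri 4 was highest: Tff2, Msln, Onecut2 and Gata6 (13.8%, near the 14.8% of all genes). Some placements were near ties. In Gata6, Tff2, Msln, Muc20 and Cldn3 the highest tumour led the next by 0.0068, 0.027, 0.080, 0.056 and 0.062 log2 units. The largest repeat differences of these genes were larger, at 0.31, 0.19, 0.35, 0.27 and 0.11. Vehicle 2 was lowest in 13 members (44.8%, beside 27.7% of the 94 related genes and 11.8% of all genes) but near the top for Cldn3, Esrp1 and St14. The other 8 members were in none of the groups by highest tumour: Krt8, Cdh1, Tjp1, Pkp3, Sox9, Tspan8, Spint2 and Cdx2. Krt8 had Vehicle 1 highest, CSF1Ri 4 next and Vehicle 2 lowest.

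**Figure D4:**
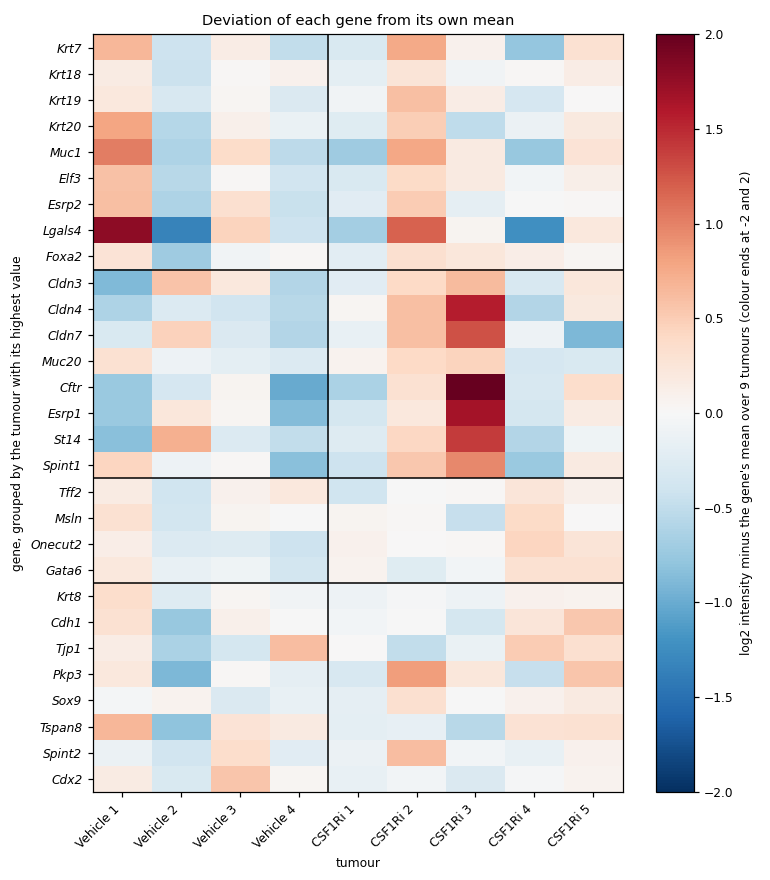
Log2 intensity of each tested gene minus its own mean over 9 tumours (colour, red above and blue below), with tumours as columns and genes as rows grouped by the tumour with the highest value. The first block of 9 genes is red in Vehicle 1 and CSF1Ri 2, the second block of 8 in CSF1Ri 3, and Vehicle 2 is blue in most of the first block.

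Markers of other cell types also differed between these tumours, and their part in the epithelial values was not tested. CSF1Ri 3 had the highest mean log2 level of the fibroblast (9.07, others 8.11 to 8.86), endothelial (8.10, others 7.22 to 7.80) and T cell lists (8.60, others 7.03 to 8.23). This tumour was also highest for the islet (8.21, others 6.40 to 7.87) and B cell lists (2 genes, 6.87, others 5.39 to 6.84). In the erythroid list Vehicle 1 was highest at 10.83, then CSF1Ri 3 at 9.72, with the others at 7.15 to 8.96. Vehicle 2 had the highest macrophage mean (8.83). Acinar enzymes varied most: all 19 tested markers had negative estimates (median -2.36) with 0 called, and their summed linear signal was 45391 to 137584 in Vehicle and 1199 to 156477 in CSF1Ri, lowest in CSF1Ri 1 and highest in CSF1Ri 5. Normal pancreas contains ducts as well as acini, and the values cannot divide duct genes between tumour and normal ducts. Neutrophil markers summed to 2141 to 16769 and 1020 to 5051, with Vehicle 1 highest. Of the 6 adipocyte markers, Adipoq, Plin1, Cidec and Fabp4 were detected on 0 arrays, Retn on 0 Vehicle and 1 CSF1Ri arrays and Lep on 3 and 4. Of the 5 muscle markers, Acta1, Ckm, Tnnt3 and Myh4 were detected on 0 arrays and Mylpf on 4 and 2.

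**Figure D5:**
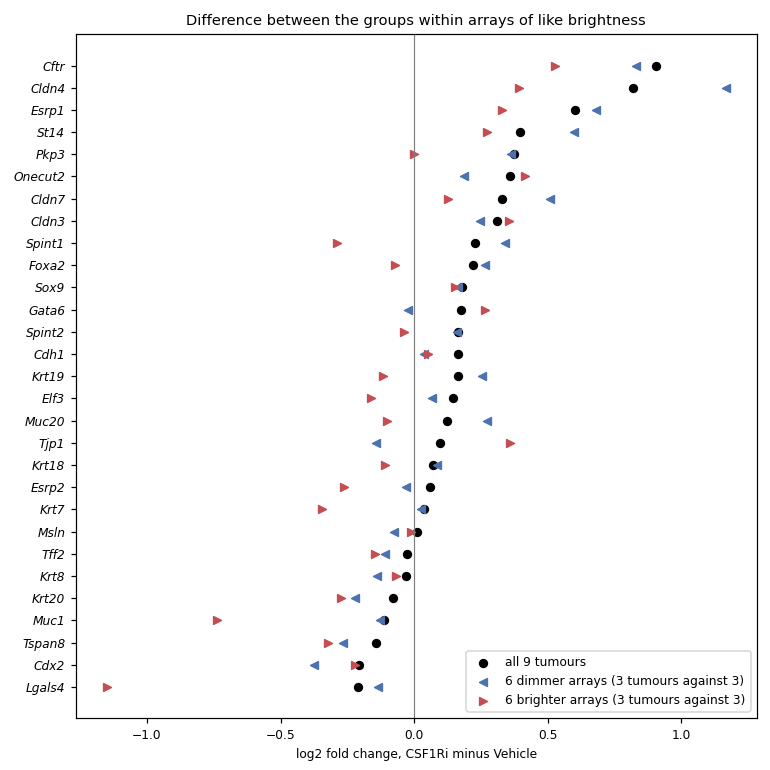
Log2 fold change, CSF1Ri minus Vehicle, of each tested gene over all 9 tumours (circles), within the 6 dimmer arrays (left-pointing triangles) and within the 6 brighter arrays (right-pointing triangles), each set holding 3 tumours of each group. Vehicle 1, Vehicle 3 and CSF1Ri 1 are in both sets, which are therefore not independent. Cldn4, Cftr and Esrp1 stay right of 0 in both sets, whereas Krt7 is at 0.03 in the dimmer and -0.35 in the brighter arrays.

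Related genes from 10 further lists were measured in the same way. Not all of them are epithelial, since 1 list holds genes of the epithelial-mesenchymal transition (10 tested). Of 138 genes 94 were tested and 0 were called in either direction, with 7 (7.45%) at an unadjusted p under 0.05 higher and 1 (1.06%) lower, beside 3.73% and 3.8% of all genes. Their median log2 fold change was 0.14, beside 0.01 over all genes. Among other keratins (0 of 5 called), Krt17, a stress and basal keratin, had a difference of 1.11 (SE 0.36, adjusted p = 0.407) and the basal keratin Krt14 one of -0.39. Among other junction genes (0 of 21), the adhesion molecule F11r had 0.40 and the pore-forming claudin Cldn2 0.36.

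Among other desmosome genes (0 of 6), Ppl, the plaque protein periplakin, measured 7.54, 7.12, 7.39 and 7.32 in Vehicle and 7.61, 8.18, 8.06, 7.96 and 7.74 in CSF1Ri. All 5 CSF1Ri tumours lay above all 4 Vehicle tumours, the only tested gene of these lists separating with CSF1Ri higher (1.06% of 94, beside 1.46% of all genes). The difference of 0.56 (SE 0.14) did not pass (adjusted p = 0.234), and with the mean of the kept Ppl probes it was 0.27 (adjusted p = 0.722). Pkp4, a plakophilin relative, had 0.38, and 0.17 with the mean of its kept probes (adjusted p = 0.799, limma). Epgn, the EGF receptor ligand epigen, was the only gene of these lists separating with CSF1Ri lower (1.06%, beside 1.42% of all genes), at 5.18, 5.80, 5.44 and 6.00 in Vehicle and 5.13, 5.05, 4.72, 4.77 and 4.84 in CSF1Ri. Its difference of -0.70 (SE 0.17) did not pass either (adjusted p = 0.218) and was -0.32 with the background modelled without detection p-values and an offset of 50. Among the EGF receptor family and ligands (0 of 6) Hbegf, heparin-binding EGF, had -0.26.

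In the remaining lists the genes with the smallest p were as follows. In the list of hemidesmosome and laminin-332 genes (0 of 8) these were Col17a1, a hemidesmosomal collagen, at 0.25, and Dst, a keratin linker, at 0.24. With the mean of the kept Dst probes the Dst difference was 0.09. The list of other mucins and glycosylation genes (0 of 6) had the gastric mucin Muc5ac at -0.62 and the glycosyltransferase B3gnt3 at 0.14. The epithelial surface and trafficking list (0 of 13) had the transcription factor Klf5 at 0.35 and Ap1m2, an adaptor of basolateral sorting, at 0.61. The Ap1m2 difference was 0.35 without CSF1Ri 3 and 0.46 with the mean of the kept Ap1m2 probes. In the same list Rab25, an apical recycling GTPase, was chosen after its values were seen: it was highest in CSF1Ri 3 at 9.24, as Ap1m2 was at 6.66, while the tumours next in order differed. Of the 94 related genes 23 (24.5%) were highest in CSF1Ri 3, beside 15.5% of all genes, and 14 (14.9%) were lowest there, beside 18.5%.

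Among other foregut and ductal factors (0 of 10) Ovol2, a repressor of mesenchymal genes, had 0.40 and the Hippo pathway factor Tead1 -0.21. Among duct transport genes (0 of 9) the bicarbonate cotransporter Slc4a4 had 0.43 and the chloride cotransporter Slc12a2 0.20. In the epithelial-mesenchymal list (0 of 10) the repressor Snai1 had -0.24 (SE 0.17) and fibronectin, Fn1, 0.15. With the mean of the kept probes of each gene, Tead1 had -0.10, Slc12a2 0.34 and Fn1 0.29. The other ZEB and SNAI repressors of the epithelial-mesenchymal list had estimates above 0: Snai2 0.35 (SE 0.30), Zeb1 0.14 (SE 0.14) and Zeb2 0.05 (SE 0.19).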

How the data were processed

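Gene expression was measured in 9 tumours on 12 arrays, and groups came from each sample's treatment label. For 45281 probes the authors deposited an intensity, background-subtracted but unscaled between arrays, and, per the file headers, the probe's detection p-value. The authors' processed intensity equals the unscaled intensity times 1 factor per array, and it served as an alternative. The sources used here name no scanning software and no genome build.

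In limma 3.58.1 (R 4.3.3), neqc modelled the background from the detection p-values, added an offset of 16, quantile-normalised the 12 arrays and took log2. The offset shrinks the fold changes of dim genes. Arrays of a tumour were averaged. Probes were kept (16606) if at least 4 tumours had a detection p-value under 0.05 on each of their arrays. The kept probe with the highest mean stood for its gene. Symbols came from the platform annotation, which gave 34885 probes 1 symbol, 18 several and 10378 none, and 34807 were found in a RefSeq table. lmFit and eBayes compared the groups without covariates, with adjusted p-values by Benjamini-Hochberg at a threshold of 0.05. The procedure was tested on simulated data.

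The members and the lists were chosen with earlier results of these data known. Full values are given for the 12 members with the smallest p and for further markers on a written list where a probe was kept, with Lgals4 added after its values were seen. From each related list the 2 genes with the smallest p are named, and Snai2, Zeb1 and Zeb2 were added beside Snai1. Promoter windows (RefSeq, GRCm38.p6) were read by gene symbol. Alternatives changed the background model, scaling, filter, probe choice, repeat arrays, array brightness, pairing and the tumours included.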

Additional observations from a re-analysis of the deposited data

Results flagged for a closer look

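Esrp1 in CSF1Ri 3, at 9.13 log2 units, stood far above the other CSF1Ri tumours, of which the nearest was at 7.67. The gap was larger than Dixon's test allows at its 95% level for 5 samples. This was 1 of 58 pairs of a member and a group tested (1.72%), and chance alone marks about 1 in 20 groups (5%). Esrp1 was read through a single kept probe, and the tumour was hybridised once. The mean intensity of its array was 149, within the range of the 6 dimmer arrays, 142 to 193, but 17272 probes were detected on it against 16219 to 16644 on the other 5 dimmer arrays. Its median in the authors' processed intensities was 5.35, against 3.61 to 4.43 on the other 11 arrays. The part of these in the Esrp1 value was not tested. Without CSF1Ri 3 the Esrp1 log2 difference between the groups was 0.25.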

How the results depend on the processing

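No member was called in either direction under any of 20 settings, and the smallest adjusted p of a member over them was 0.286 (limma). The direction held under all 20 for 10 members (Cldn3, Cldn4, Cldn7, Pkp3, Sox9, Cftr, Esrp1, St14, Cdx2 and Onecut2) and changed under at least 1 for 19. Over all genes the 21 lower and 0 higher became 12 lower with 75th percentile scaling, 12 lower and 1 higher with no filter, 1 higher at a detection p-value under 0.01, 1 higher with the mean of kept probes, 2 higher with the background modelled without detection p-values and an offset of 50, 46 lower and 6 higher with brightness as a term, 1 lower in the dimmer set and 11 lower in the brighter set, and 11 to 34 lower with 0 to 1 higher without 1 tumour. With the replicate number as a block, 1 gene was called lower. Same-numbered tumours deviated together with correlations of -0.088, 0.0291, 0.124 and 0.336, so the numbers were not taken as pairs. Within the brighter arrays the log2 differences that changed sign were B3gnt3 -0.036, Elf3 -0.16, Esrp2 -0.26, Foxa2 -0.071, Krt18 -0.11, Krt19 -0.12, Krt7 -0.35, Msln -0.0098, Muc20 -0.10, Snai1 0.045, Spint1 -0.29, Spint2 -0.037, and within the dimmer arrays Esrp2 -0.031, Gata6 -0.024, Msln -0.075, Tjp1 -0.14. With brightness as a term these were Krt7 -0.014 and Msln -0.0041, with first hybridisations alone Tjp1 -0.042, with the mean of kept probes Esrp2 -0.025, and with the replicate block Krt7 -0.036. Leaving out 1 tumour changed the sign for Cdh1 (-0.058 to 0.29), Elf3 (-0.014 to 0.37), Esrp2 (-0.13 to 0.27), Krt18 (-0.060 to 0.14), Krt20 (-0.29 to 0.17), Krt7 (-0.15 to 0.27), Krt8 (-0.12 to 0.081), Lgals4 (-0.70 to 0.34), Msln (-0.11 to 0.13), Muc1 (-0.34 to 0.21), Spint1 (-0.011 to 0.44), Tff2 (-0.16 to 0.073), Tjp1 (-0.095 to 0.32), Tspan8 (-0.44 to 0.052). The cause was not tested. Depth is limited by signal over background: St14, Muc20, Tjp1 and Cdx2 were not detected on every array.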
